A study of Mus musculus with 4 samples.

Results

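Wnt genes encode a signalling pathway in which secreted ligands bind receptors on a neighbouring cell. The 39 genes described here are 19 Wnt ligands, 12 receptors (10 Frizzled receptors and the co-receptors Lrp5 and Lrp6) and 8 effectors. The effectors comprise 5 intracellular proteins (Ctnnb1, Axin1, Axin2, Lef1 and Tcf7) and 3 secreted inhibitors (Dkk1, Sfrp1 and Sfrp2). They were chosen by name and by their role in the pathway, and they are 39 of the 22380 protein-coding genes of the mouse annotation used. Each gene was described by the Pax7 binding sites around it, that is, by the ChIP-seq peaks whose summit (the position of highest signal) lay within 50 kb of its transcription start site (TSS) on either side.

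Pax7 occupancy was measured by chromatin immunoprecipitation and sequencing in iPax7 muscle progenitors, a mouse embryonic stem cell derivative in which Pax7 is expressed from a doxycycline-inducible transgene. The transgene sits next to Hprt under a TRE promoter in the A2lox-cre line. Cells received 1 µg/ml doxycycline (Dox) from day 3 of differentiation, PDGFRα+FLK1- cells were sorted on day 5, and chromatin was collected on day 9, after 6 days of Dox. Pax7 was precipitated in 2 libraries, and 2 more held input (chromatin sequenced without immunoprecipitation), all from cells in Dox. Cells without Dox were not part of the list, so a change of a site with Pax7 could not be measured. The 2 ChIP libraries were merged before peaks were called, which gave 1 list of 20579 peaks. No peak therefore had a replicate error, no test between samples was possible, and the list carried no read counts that would give the depth behind a peak. Pax7 from the transgene and from the endogenous gene cannot be told apart. Expression of the Wnt genes was not analysed here.

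In the canonical branch of the pathway, a Wnt ligand brings a Frizzled receptor together with Lrp5 or Lrp6. The complex that holds Axin and degrades β-catenin, the product of Ctnnb1, is then inhibited, and β-catenin joins TCF/LEF factors on DNA to activate genes, Axin2 among them. Dkk1 blocks the Lrp co-receptors, and Sfrp proteins bind the ligands outside the cell. In the embryo, Wnt signals from the dorsal neural tube and surface ectoderm promote myogenesis in the somite. In adult muscle, satellite cells, which are marked by Pax7, respond to Wnt ligands during regeneration.

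Pax7 peaks were found near ligands, receptors and effectors alike. The 2 strongest peaks lay at the co-receptors Lrp5 and Lrp6. To show what was bound, the summit and the 50 bases on either side are printed for the strongest peaks that lie outside exons and for those that held a Pax or a TCF/LEF word. All are the plus strand of NCBIM37 (mm9). The windows were chr19:3641913-3642013 for Lrp5 and chr6:134518958-134519058 for Lrp6. Those of the other receptors were chr7:96529591-96529691 for Fzd4, chr14:65885051-65885151 for Fzd3, chr5:135767359-135767459 for Fzd9 and chr1:59587454-59587554 for Fzd7. The ligand windows were chr15:98598826-98598926, shared by Wnt1 and Wnt10b, and chr6:22280233-22280333 for Wnt16. The effector windows were chr17:26260322-26260422 for Axin1 and chr3:83563777-83563877 for Sfrp2. Capitals mark the longest run that the Lrp5 and Lrp6 windows shared on the same strand, the homeodomain dimer at Sfrp2, and a TCF/LEF word at Wnt16 and Fzd7. The other 5 windows held none of these and are in lower case throughout.
Lrp5: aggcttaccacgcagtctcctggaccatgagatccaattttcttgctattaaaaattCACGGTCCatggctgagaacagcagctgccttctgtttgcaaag
Lrp6: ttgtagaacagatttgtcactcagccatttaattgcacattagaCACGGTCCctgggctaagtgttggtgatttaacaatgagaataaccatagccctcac
Wnt1 and Wnt10b: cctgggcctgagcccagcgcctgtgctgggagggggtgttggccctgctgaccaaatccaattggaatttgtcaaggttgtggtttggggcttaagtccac
Fzd4: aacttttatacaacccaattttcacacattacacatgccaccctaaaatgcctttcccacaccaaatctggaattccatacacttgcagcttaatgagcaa
Axin1: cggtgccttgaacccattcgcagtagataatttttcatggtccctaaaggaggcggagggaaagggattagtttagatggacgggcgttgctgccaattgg
Fzd3: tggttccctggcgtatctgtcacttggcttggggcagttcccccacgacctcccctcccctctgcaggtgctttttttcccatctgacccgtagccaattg
Fzd9: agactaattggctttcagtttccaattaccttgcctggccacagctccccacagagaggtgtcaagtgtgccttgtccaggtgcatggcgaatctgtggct
Sfrp2: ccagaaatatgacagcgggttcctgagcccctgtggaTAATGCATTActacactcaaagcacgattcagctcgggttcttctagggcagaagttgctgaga
Wnt16: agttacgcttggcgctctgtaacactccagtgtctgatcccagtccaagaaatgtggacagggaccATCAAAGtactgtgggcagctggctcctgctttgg
Fzd7: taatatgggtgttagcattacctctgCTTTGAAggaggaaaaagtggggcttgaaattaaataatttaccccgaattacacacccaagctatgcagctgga

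Of the 39 Wnt genes, 25 (64.1%, 95% Wilson interval 48.4 to 77.3%) had at least 1 Pax7 peak within 50 kb, where 55.2% of all protein-coding genes did. The share was close to the background, which lay inside the interval. The interval covers counting error only, and neighbouring genes can share a peak. The 3 roles hardly differed by this count, with 12 of 19 ligands (63.2%), 8 of 12 receptors (66.7%) and 5 of 8 effectors (62.5%). The number of peaks was similar too, with a mean of 1.13 per Wnt gene and 1.11 per protein-coding gene. No peak was found for 14 Wnt genes, 12 had 1 peak, 8 had 2, 4 had 3 and 1 had 4. At least 3 peaks were present at 5 of 39 Wnt genes (12.8%), beside 14.6% of all protein-coding genes.

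**Figure D1:**
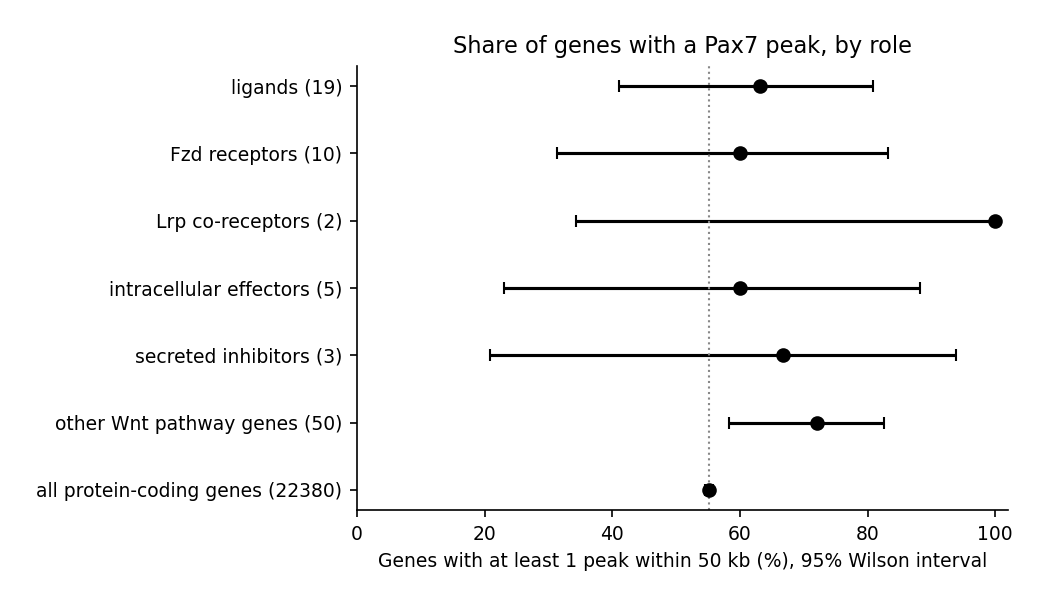
Share of genes with at least 1 Pax7 peak within 50 kb of the TSS (x axis, percent) for each role (y axis, number of genes in brackets), with 95% Wilson intervals and a dotted line at the 55.2% of all protein-coding genes. The points of the 5 Wnt roles lie between 60% (Frizzled receptors, intracellular effectors) and 100% (both co-receptors), with intervals that all include the dotted line, while the 50 other pathway genes stand at 72% with an interval from 58.3%.

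In total 40 distinct peaks formed 44 gene-peak pairs, since 4 peaks each lay within reach of a pair of neighbouring ligands. They were spread over both sides of the TSS, with 21 of the 44 pairs upstream (47.7%), as for all protein-coding genes (50.5%). No Wnt gene had a summit within 1 kb of the start of its gene record, where 11.8% of all protein-coding genes did. With 39 genes, a count of 0 allows a share of up to 7.69% (3 of 39), counting error only. Counting the start of every annotated transcript, a rule added after the data were seen, 1 Wnt gene (Ctnnb1, 2.56%) had a summit within 1 kb, beside 14.0% of protein-coding genes. Within 10 kb the shares were nearer, with 8 of 39 Wnt genes (20.5%) and 24.2% of protein-coding genes. These 8 were the ligands Wnt10b and Wnt16, the receptors Fzd3, Fzd4 and Lrp6, and the effectors Ctnnb1, Dkk1 and Sfrp2. The median distance from the TSS to the nearest summit was 31.3 kb for the Wnt genes, 39.2 kb for ligands, 31.0 kb for receptors, 15.3 kb for effectors and 41.1 kb for all protein-coding genes.

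**Figure D2:**
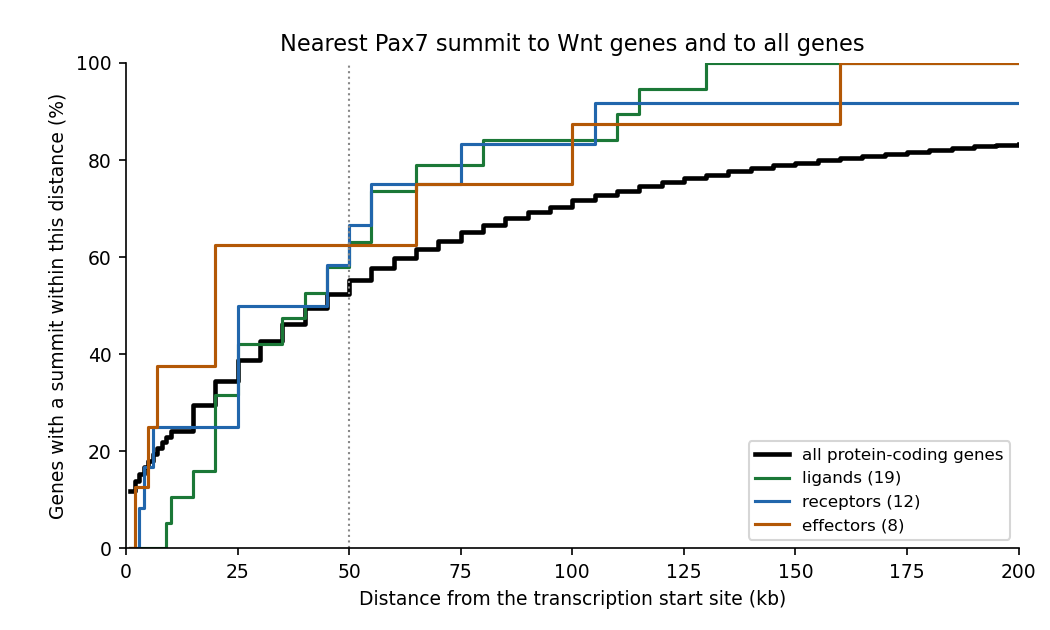
Cumulative share of genes (y axis, percent) whose nearest Pax7 summit lies within a given distance of the TSS (x axis, kb) for ligands, receptors, effectors and all protein-coding genes, with the 50 kb limit dotted. At 5 kb no ligand has a summit while 18% of protein-coding genes do, at 20 kb the effectors stand at 62.5% against 34.4%, and at 100 kb the 3 roles lie between 83.3 and 87.5% against 71.7%.

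The position of the peaks around each gene varied widely within each role. The genes placed on the same scale show empty surroundings for 14 members next to clusters of 3 or 4 peaks at Wnt11, Wnt16, Fzd3, Fzd4 and Lef1.

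**Figure D3:**
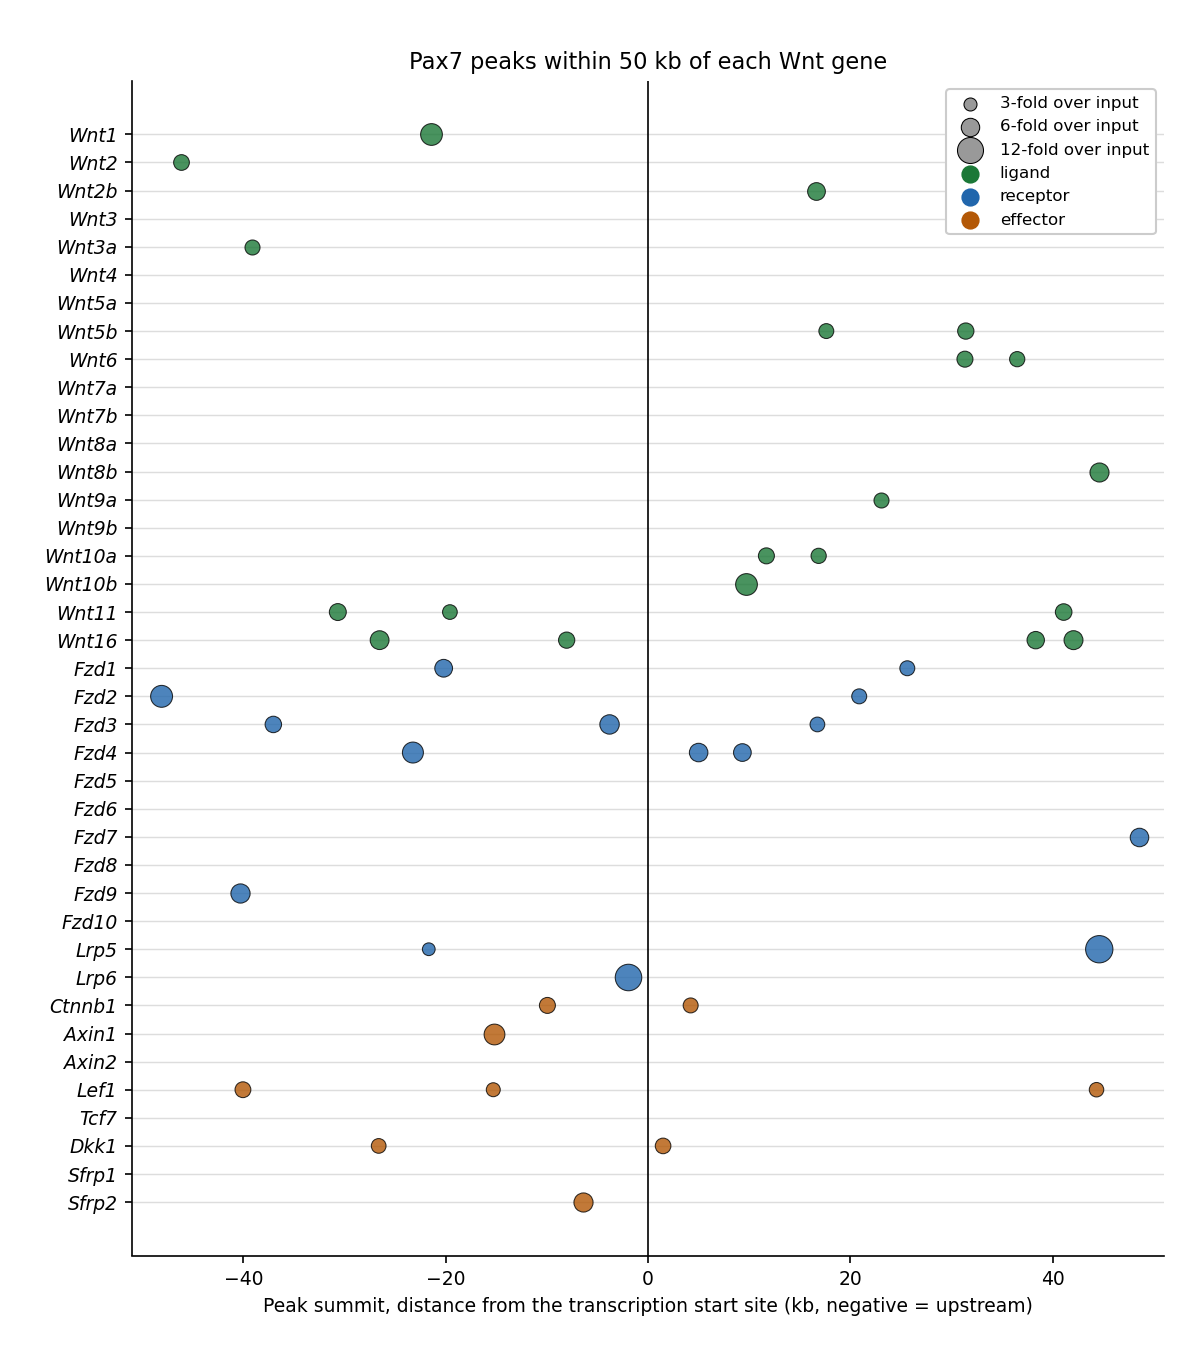
Pax7 summits within 50 kb of each of the 39 Wnt genes, placed by distance from the TSS (x axis, kb, negative upstream) with 1 gene per line; point area is proportional to fold enrichment over input and colour gives the role. The largest points are at Lrp5 (44.6 kb downstream) and Lrp6 (2.03 kb upstream), and 14 lines are empty.

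Among the ligands, Wnt16 had the most peaks. Its 4 summits lay 26.5 kb and 8.04 kb upstream and 38.3 kb and 42.1 kb downstream. Their fold enrichment over input, a linear ratio at the summit, was 6.28, 4.68, 5.37 and 6.37 in that order. Both downstream peaks lay inside Fam3c, the next gene, so they were nearer to it in annotation than to Wnt16. The upstream peak at 8.04 kb was 841 bp wide, whereas the median width of all peaks was 252 bp. Wnt11, which signals mainly without β-catenin, had 3 peaks, 30.7 kb and 19.6 kb upstream and 41.1 kb downstream, with fold enrichments of 5.09, 3.84 and 4.89. All 3 lay between genes, and Wnt11 was their nearest coding gene.

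Wnt1 and Wnt10b are neighbours on chromosome 15, and a single peak counted for both. It lay 21.4 kb upstream of Wnt1 and 9.71 kb downstream of the TSS of Wnt10b, with an 8.39-fold enrichment that was the highest of the 16 ligand peaks and exceeded 87.1% of all peaks. Its nearest coding TSS, at 5.23 kb, was neither ligand but Arf3, so the annotation does not tell which gene the site belongs to. Wnt1 is a canonical ligand of the dorsal neural tube, and Wnt10b is a canonical ligand known in muscle and fat lineages. Wnt6 and Wnt10a, adjacent on chromosome 1, shared 2 peaks of 4.55-fold and 4.12-fold. Wnt10a was the nearer, at 11.7 kb and 16.9 kb downstream, and the 4.55-fold summit lay in an exon of Wnt10a. Wnt3a and Wnt9a shared a peak of 4.01-fold, 39.2 kb upstream of Wnt3a and in an intron of Wnt9a, 23.0 kb from its TSS.

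The remaining ligands with a peak were Wnt2, Wnt2b, Wnt5b and Wnt8b. Wnt2b had a 5.58-fold peak 16.6 kb downstream, in one of its own exons. Wnt5b had peaks of 3.95-fold and 4.71-fold in its introns, 17.6 kb and 31.4 kb downstream. The peaks of Wnt8b (6.45-fold, 44.6 kb downstream) and Wnt2 (4.39-fold, 46.2 kb upstream) lay in introns of the neighbours Sec31b and Asz1. Ligands without a peak within 50 kb were Wnt3, Wnt4, Wnt5a, Wnt7a, Wnt7b, Wnt8a and Wnt9b. Wnt7a, a ligand of satellite cell expansion, had its nearest summit at 62.2 kb. Wnt5a, the prototype of non-canonical signalling, had its nearest at 128 kb, the farthest of the ligands. The limit of 50 kb decided a few of these. The farthest peaks inside it were those of Wnt2 (46.2 kb), Fzd2 (48.1 kb) and Fzd7 (48.5 kb). Just outside lay a 2.53-fold peak of Fzd5 (51.4 kb), a 4.96-fold peak of Wnt9b (51.8 kb) and a 3.72-fold peak of Wnt7b (53.0 kb), 3 genes that count as having none.

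The receptors had the stronger peaks. Their 15 peaks had a median enrichment of 6.08-fold, beside 4.80-fold for the 16 ligand peaks, 4.32-fold for the 9 effector peaks and 5.22-fold for all peaks. Of the receptor peaks, 10 reached 5-fold (66.7%), as did 7 ligand peaks (43.8%), 2 effector peaks (22.2%), 52.9% of the peaks within 50 kb of any coding TSS and 54.9% of all peaks. Per gene, each of the 8 receptors with a peak had at least 1 of 5-fold or more (66.7% of the 12), beside 6 of 19 ligands (31.6%), 2 of 8 effectors (25%) and 37.8% of all protein-coding genes. Several of these stronger peaks were nearest to another coding gene. They included the 8.51-fold Fzd2, 7.80-fold Fzd4, 6.69-fold Fzd3 and 6.08-fold Fzd7 peaks. Fzd2, Fzd3 and Fzd7 had no other peak of 5-fold or more. The same held for the peak shared by Wnt1 and Wnt10b, those of Wnt8b and Axin1, and both downstream Wnt16 peaks. No test stands behind the order of the roles, because the list is a single pooled one and the roles hold few genes.

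**Figure D4:**
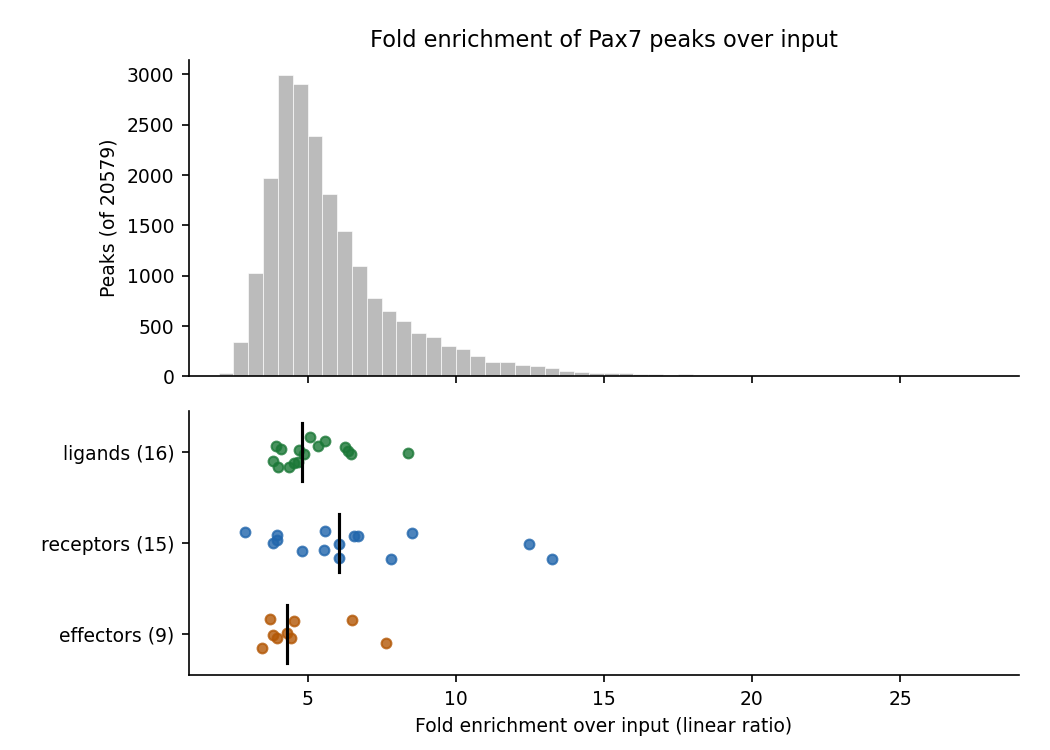
Fold enrichment over input (x axis, linear ratio) of all 20579 Pax7 peaks (upper panel, number of peaks per bin of 0.5) and of the distinct peaks of ligands (16), receptors (15) and effectors (9) in the lower panel, with points shifted vertically at random and a vertical bar at each median. Most Wnt gene peaks lie in the body of the distribution, with medians of 4.80, 6.08 and 4.32, and the points at 12.5 (Lrp6) and 13.2 (Lrp5) stand to the right of it.

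Lrp5 and Lrp6, the paired co-receptors without which canonical Wnt ligands do not signal, carried the strongest peaks of all 39 genes. The Lrp5 peak had a 13.2-fold enrichment and a −log10 q of 58.4. It ranked 422 of all peaks and exceeded 97.9% of them. It lay in an intron of Lrp5, 44.6 kb downstream of the TSS. The Lrp6 peak had a 12.5-fold enrichment and a −log10 q of 53.4, ranked 568 and exceeded 97.2% of peaks. It lay between genes, 2.03 kb upstream of the Lrp6 TSS, and Lrp6 was the nearest coding gene. These were the only Wnt genes with a peak of at least 10-fold, 2 of 39 (5.13%), a share no higher than the 6.83% of all protein-coding genes. Lrp5 had a further peak 21.7 kb upstream that was the weakest of the 40, at 2.88-fold. That peak lay within 1 kb of the TSS of 1810055G02Rik.

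Frizzled receptors, the seven-pass receptors that bind the Wnt ligand itself, had peaks at 6 of 10 genes. Fzd4 had 3 peaks, 7.80-fold at 23.2 kb upstream in an intron of Tmem135, 6.08-fold at 5.01 kb downstream in its own exon, and 5.56-fold at 9.33 kb downstream, past the end of the gene. All 3 exceeded the median of all peaks. Fzd3 also had 3, of which the strongest (6.69-fold) lay 3.80 kb upstream of Fzd3 but only 437 bp from the TSS of Fbxo16. The others were a 4.80-fold peak in an intron of Fbxo16 and a 3.84-fold peak in an intron of Fzd3, 16.7 kb downstream.

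Fzd2 had an 8.51-fold peak 48.1 kb upstream, which was 37 bp from the TSS of Gpatch8, and a 3.98-fold peak 20.9 kb downstream. Fzd1 had peaks of 5.58-fold and 3.96-fold, 20.2 kb upstream and 25.6 kb downstream, both between genes and nearest to Fzd1. Fzd9 had a 6.56-fold peak between genes, 40.3 kb upstream. Fzd7, the receptor for Wnt7a on satellite cells, had a 6.08-fold peak 48.5 kb downstream, in an intron of Gm973. No peak lay within 50 kb of Fzd5, Fzd6, Fzd8 or Fzd10. The nearest summit to Fzd10 was 419 kb away, the farthest of the 39 genes.

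**Figure D5:**
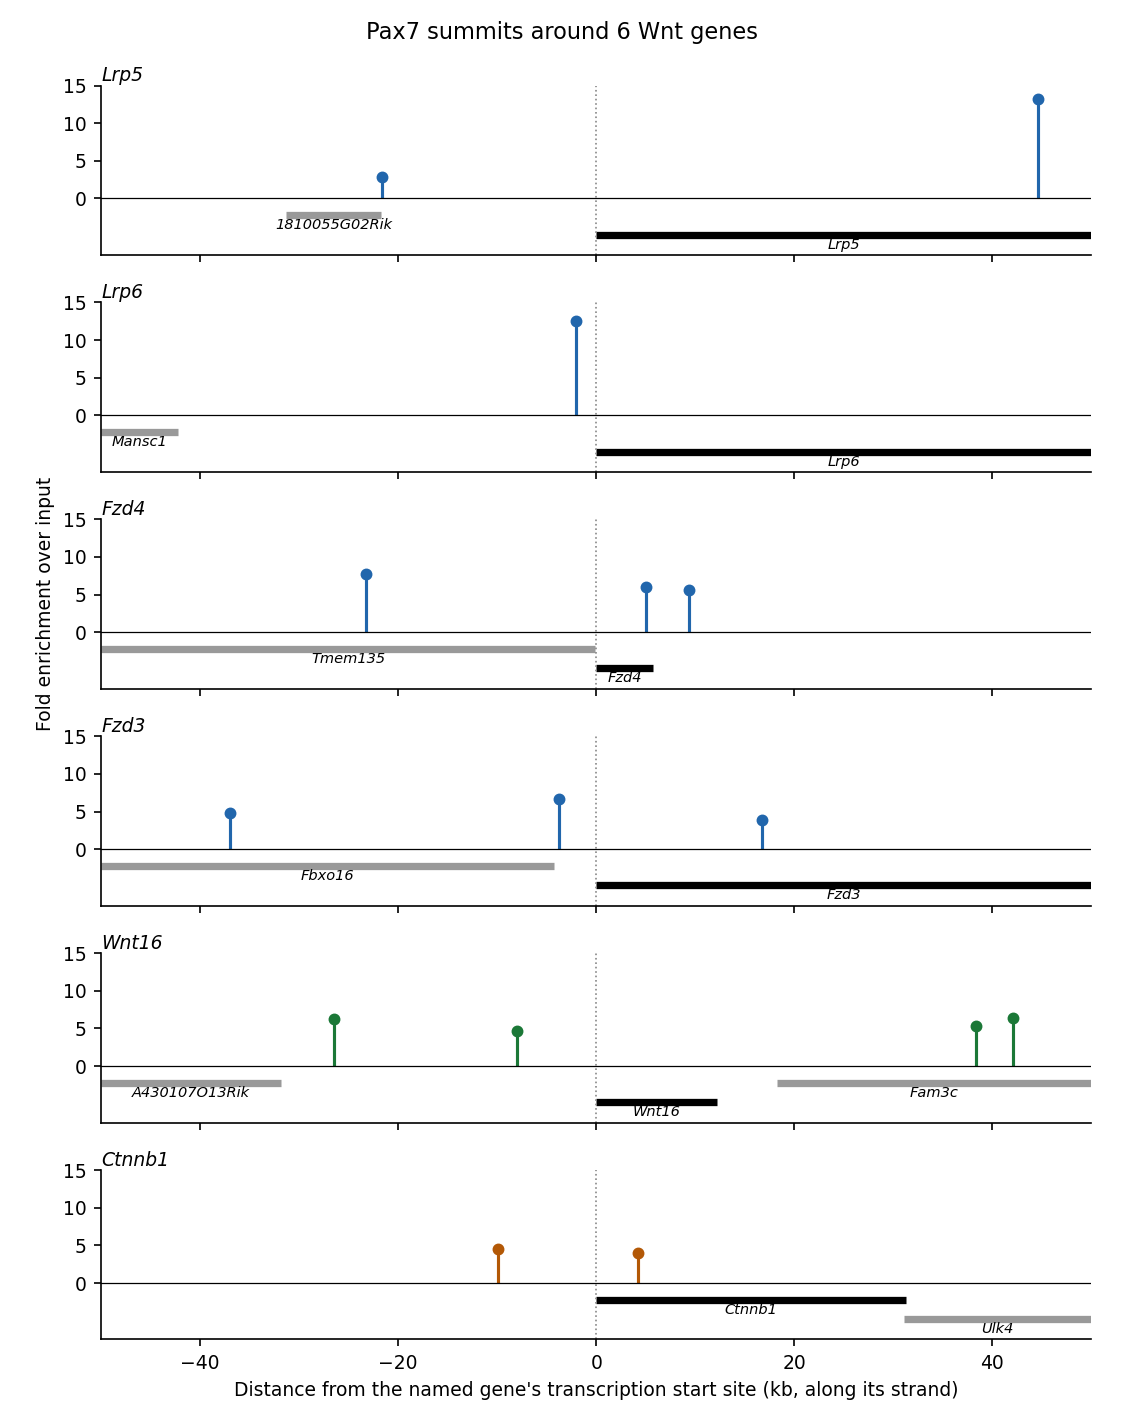
Pax7 summits (vertical lines, height in fold enrichment over input) within 50 kb of the TSS of Lrp5, Lrp6, Fzd4, Fzd3, Wnt16 and Ctnnb1, along the strand of each gene (x axis, kb), with the named gene in black and neighbouring coding genes in grey. The 13.2-fold summit of Lrp5 is inside the gene, the 12.5-fold summit of Lrp6 is 2.03 kb before it, and the strongest Fzd3 summit is at the start of its neighbour Fbxo16.

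Among the intracellular effectors, Ctnnb1, Axin1 and Lef1 had peaks. Ctnnb1 had a 4.54-fold peak 9.94 kb upstream and a 3.98-fold peak 4.22 kb downstream of the start of the gene record. The latter was 32 bp from the start of another Ctnnb1 transcript, and 5 of its 13 annotated transcripts started within 500 bp of that summit. Both peaks were below the median of all peaks. Axin1, a scaffold of the β-catenin degradation complex, had the strongest effector peak (7.66-fold), 15.3 kb upstream of Axin1 but 93 bp from the TSS of Mrpl28. Lef1, a DNA-binding partner of β-catenin, had 3 peaks of low enrichment (4.44-fold, 3.46-fold and 3.72-fold) at 40.0 kb and 15.3 kb upstream and 44.3 kb downstream in an intron. Axin2, a common transcriptional target of the pathway, and Tcf7 had no peak within 50 kb, with their nearest summits at 98.3 kb and 63.7 kb.

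The secreted inhibitors Dkk1 and Sfrp2 had peaks close to their starts. The Dkk1 peak of 4.32-fold lay in Dkk1, 1.49 kb downstream of its TSS. By the starts of the gene records, this was the shortest distance of all 39 genes. A further Dkk1 peak of 3.84-fold lay 26.6 kb upstream in an intron of Prkg1. Sfrp2 had a 6.50-fold peak between genes, 6.42 kb upstream, with a −log10 q of 25.6. Sfrp1 had none, with its nearest summit 160 kb away.

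Several of these sites may be assigned to other genes by position. For 28 of the 40 peaks the nearest coding TSS was a Wnt gene. The remaining 12 were nearer to another gene, among them the Fzd2, Axin1 and strongest Fzd3 peaks near starts of Gpatch8, Mrpl28 and Fbxo16. Keeping only peaks nearest to the gene's own TSS left 17 of 39 Wnt genes (43.6%), beside 31.9% of protein-coding genes under the same rule. By position, 7 of the 40 peaks (17.5%) lay within 1 kb of any annotated TSS, beside 27.6% of the peaks within 50 kb of a coding TSS, chosen by the same distance, and 16.3% of all peaks. The other 33 were 3 peaks in exons, 14 peaks in introns and 16 peaks outside any gene.

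The paired-domain core GTCACG was absent within 50 bp of the Wnt gene summits, while the short homeodomain word ATTA was as frequent as elsewhere. The paired domain of Pax7 recognises words with the core GTCACG, and its homeodomain binds TAAT or ATTA. Within 50 bp of the summit, on either strand, GTCACG occurred in 0 of 40 Wnt gene peaks, in 11.1% of all peaks and in 13.5% of the 11347 peaks within 50 kb of any coding TSS. In 40 peaks a count of 0 allows a share of up to 7.5% (3 of 40), or 8.76% by the Wilson interval, counting error only. Within 100 bp it occurred in 2 of the 40 (5%) and in 14.2% of all peaks. The Wilson interval of a count of 2 in 40, from 1.38 to 16.5%, includes that share of all peaks. The combined word ATTAGTCAC or ATTAGTCAT occurred in 0 of 40 and in 2.10% of all peaks. The homeodomain dimer, TAAT and ATTA with 2 bases between, was present in 1 peak, that of Sfrp2 printed above, 8.5 bp from the summit, and in 0.831% of all peaks. Together 1 of 40 peaks (2.5%) held any of these words, beside 13.7% of all peaks, 15.9% of those near a coding TSS and 1.76% of windows of the same width centred 500 bp to the right of all peaks. ATTA alone, counted after the data were seen, occurred in 25 of 40 Wnt gene peaks (62.5%), 64.7% of all peaks and 46.5% of the windows to the right of all peaks. GCACTG, which has the letters of the core in another order, occurred in 2 of 40 (5%) and 6.86% of all peaks. No match says only that these letters are not in this window.

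The Lrp5 and Lrp6 windows lacked GTCACG as well. Its 5-letter ends were looked for after the data were seen. Lrp5 held TCACG 8 bp from its summit, and Lrp6 held GTCAC 33 bp from its summit. Both windows held CACGGTCC, the 8-base run in capitals above, centred 10.5 bp from the Lrp5 summit and 2.5 bp from the Lrp6 summit. This run, ATGGCTGAG and CACGGT were picked after the sequences were seen. On opposite strands they also shared a longer run of 9 bases, ATGGCTGAG. CACGGTCC occurred in 0.729% of all peaks and in 0.107% of the windows to the right, and ATGGCTGAG in 0.238% and 0.121%. The shorter CACGGT, which overlaps the paired core in its letters CACG, occurred in 6 of 40 Wnt gene peaks (15%), 8.09% of all peaks, 14.1% of peaks of at least 10-fold and 1.61% of the windows to the right.

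Of the words of other factors, the TCF/LEF word CTTTGAA or CTTTGAT was present in 2 of 40 peaks (5%), the Fzd7 peak and the Wnt16 peak 42.1 kb downstream, beside 2.91% of all peaks. The E-box CAGCTG, a word bound by myogenic bHLH factors, was present in 8 of 40 (20%) and 15.7% of all peaks. The GC content of the summit windows had a median of 48.0% for the Wnt gene peaks, 47.5% for the peaks within 50 kb of any coding TSS and 45.5% for all peaks.

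Of 50 other genes of the pathway, 36 (72%, 58.3 to 82.5%) had a peak within 50 kb, beside 55.2% of all protein-coding genes. Without Olfr and Vmn genes, on chromosomes 1 to 19 and X, that background was 58.6%. The mean was 1.42 peaks per gene, beside 1.11 per protein-coding gene. These genes had 71 distinct peaks with a median of 5.21-fold, beside 5.22-fold for all peaks. GTCACG was held by 15 of the 71 (21.1%), beside 11.1% of all peaks and 13.5% of those near a coding TSS. Rnf43, an E3 ligase that removes Frizzled receptors from the membrane, had 7 peaks, the strongest of 11.2-fold at 15.1 kb downstream in its intron. Of these 7, 3 were nearest to the Rnf43 TSS and the rest to that of another coding gene. Tcf7l2, a DNA-binding factor of the same family as Tcf7 and Lef1, had 6 peaks. The strongest, 10.2-fold and 5.68 kb downstream in an intron, held GTCACG 9.5 bp from the summit. Kremen1, a Dkk receptor, had 5 peaks, of up to 8.47-fold. Csnk1a1, the casein kinase that primes β-catenin for degradation, had 3 peaks, among them an 11.3-fold peak in an exon and a 6.07-fold peak 65 bp upstream of its TSS. Dvl3, Tnks and Wls had 3 each, with strongest values of 9.05-fold, 6.10-fold and 8.57-fold, and 12 genes tied with 2. All 3 Dvl3 peaks were nearer to the TSS of another coding gene. Lgr5, a receptor for R-spondins, had a 13.6-fold peak 19.2 kb upstream, and Porcn, which lipidates Wnt ligands, had an 11.9-fold peak 46.2 kb upstream that was 341 bp from the TSS of Ftsj1. At least 10-fold was reached at 5 of these 50 genes (10%), beside 6.83% of all protein-coding genes. A summit within 1 kb of the TSS was present at 5 of 50 (10%), beside 11.8%. The 14 without a peak were Rspo4, Prickle2, Celsr3, Wif1, Nkd1, Bcl9l, Dkk4, Dkk3, Ror2, Nkd2, Kremen2, Apc, Sfrp4 and Notum. This holds for the start of the gene record. Counting every annotated transcript, a summit lay 50 bp from a start of Prickle2 and 25629 bp from one of Apc.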

How the data were processed

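The authors aligned single-end Pax7 ChIP and input reads from Dox-treated iPax7 cells to mm9 with bowtie2 (2.3.4.1), discarded duplicate reads (Picard 1.88) and ran MACS2 (2.1.1) on the merged replicates with a q-value cutoff of 0.01. The deposited list gives, per peak, the fold enrichment, a linear ratio of merged ChIP over background computed by the authors at the summit, and −log10 of the q-value, as deposited. A score and −log10 of the p-value in the deposited list were not used. The list has no read counts, and the depth per library that the study states was not used here, since it does not give the reads behind a peak.

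Genes were placed with GENCODE vM1 on NCBIM37, whose 20 chromosomes matched those of the list, with no peak past a chromosome end. The TSS was the 5′ end of the gene record, and coordinates are 1-based. Wilson intervals (95%) cover counting error only. The limit given for a count of 0 is 3 divided by the number of genes or peaks. Words were searched on both strands up to 50 bp from the summit and in windows 500 bp to the right. Placement and word search were tested on simulated data. The 39 genes, the lists and the named genes were chosen with earlier results of these data known. All 39 members were accounted for, with their peaks described. Of the other pathway genes, those with the most peaks or a peak of at least 10-fold were named, leaving out the 12 tied with 2 peaks unless they reached 10-fold. No test across genes was run. The alternatives were distances of 10 and 100 kb, stricter peaks, other TSS definitions, overlap in place of the summit, merged peaks and other words. Tables were handled with pandas 2.3.3 and numpy 2.4.6 in Python 3.11.15, intervals computed with scipy 1.17.1 and plots drawn with matplotlib 3.10.9.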

Additional observations from a re-analysis of the deposited data

How the results depend on the processing

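No paired analysis was possible because the replicates were merged into 1 peak list before deposit, and for the same reason no replicate could be left out. The share of Wnt genes with a peak (64.1%) was 20.5% at 10 kb, 84.6% at 100 kb, 41.0% with peaks of at least 5-fold and 43.6% with the own gene nearest. The same settings gave 24.2%, 71.7%, 37.8% and 31.9% of protein-coding genes (55.2%). The last of these was added after seeing the data. That share was also 53.0% with a −log10 q of at least 5, 58.0% with any transcript start and 58.6% without Olfr and Vmn genes on chromosomes 1 to 19 and X. At 10 kb the Wnt genes lay below the background, and at 50 and 100 kb above it, and the cause was not tested. Peaks per Wnt gene (1.13) were 0.256 at 10 kb, 2.28 at 100 kb, 0.513 at 5-fold and 0.718 with the own gene nearest. The 40 peaks were 10 at 10 kb, 78 at 100 kb and 19 at 5-fold, where their median was 6.45-fold. With the 5-letter ends of the paired core, added after seeing the data, 27.5% of Wnt gene peaks held a Pax word, beside 39.5% of all peaks. Of 79 combinations of result and setting, those added after seeing the data included, 49 stayed within the main interval or spread. That count does not measure stability, because the intervals of small groups are wide. The effectors, for example, went from 62.5% to 37.5% at 10 kb and stayed within theirs. The list gives no reads per peak and no replicate values, so no single peak has an error.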

Other observations

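A pair of words that recur in the printed sequences were counted after they were seen, and so are given as values only. CCAATT occurred within 50 bp of the summit in 9 of 40 Wnt gene peaks (22.5%), in 8.07% of all peaks and in 3.31% of the windows to the right. Among its 9 carriers were the peaks of Lrp5, Wnt1 and Wnt10b, Fzd4, Axin1, Fzd3 and Fzd9, all printed above. The word was picked from these windows, which also count towards the 22.5%, so that share is biased upward. It was present in 2 of the 71 peaks of the other pathway genes (2.82%). TAATTG, a homeodomain-type word, occurred in 6 of 40 Wnt gene peaks (15%), in 11.5% of all peaks and in 4.33% of the windows to the right. Of these 6 peaks, 5 belonged to receptors (both Fzd1 peaks, Fzd9, Lrp6 and the Fzd4 peak in its exon) and 1 to Wnt16. The Fzd4 word lay 1.5 bp from the summit. The counts of CCAATT and TAATTG are not independent, since the words overlapped in the Fzd9 window. At the 6.28-fold Wnt16 peak they lay 26.5 bp and 27.5 bp from the summit.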
